A study of Mus musculus with 16 samples.

Results

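The genes described here are the nuclear-encoded subunits of the mitochondrial respiratory chain and ATP synthase. They were chosen by gene symbol alone, as every symbol in the platform annotation that begins with Ndufa, Ndufb, Ndufs or Ndufv and a number, is one of Sdha to Sdhd, or begins with Uqcr, Cox4 to Cox8 or Atp5. A gene counted where at least 1 of its probe sets carried that symbol alone. This gave 79 of the 18193 genes on the array, and the rule itself uses no measured value. By complex they were 31 genes of complex I, 4 of complex II, 8 of complex III, 19 of complex IV and 17 of ATP synthase (complex V). Ndufa4 and Ndufa4l2, named for complex I, were counted with complex IV. The protein of Ndufa4 belongs there, and Ndufa4l2 was counted beside it. After a filter on dim genes 77 were tested, among 13915 genes in all. Cox8b and Ndufb4 fell below the filter.

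The data came from 16 single-colour Affymetrix mouse genome 430 2.0 arrays of cortical neurons from C57BL/6 embryos of day 16.5, grown for 7 days in vitro. On day 5 the cultures took up a lentivirus for 6 h with polybrene at 6 µg/ml, carrying an shRNA to c-Fos or, as the control, an shRNA to firefly luciferase, which neurons do not express. On day 7 they were silenced, and KCl was then given for 0, 1, 3 or 6 h, so that the 0 h groups are silenced neurons with either virus. The groups were c-Fos shRNA at 0, 1, 3 and 6 h and control shRNA at 0, 1, 3 and 6 h, with 2 arrays each. All 8 groups had been infected, and the labels name no further c-Fos hairpin, so an effect of c-Fos loss and any other effect of that hairpin or virus cannot be told apart. Each group's pair of arrays is labelled as bioreplicates, with no word on whether separate dissections were used, and p-values therefore cover only the spread from array to array, which may be technical.

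The respiratory chain turns the electrons of NADH and succinate into a proton gradient across the inner mitochondrial membrane, and ATP synthase uses that gradient to make ATP. Complex I takes electrons from NADH, complex II from succinate, complex III passes them from ubiquinol to cytochrome c, and complex IV hands them to oxygen. Iron-sulphur clusters held by a few subunits carry electrons through complexes I, II and III, while many other subunits are accessory and serve assembly or stability. A small number of catalytic subunits are encoded by mitochondrial DNA and were not analysed here. Neurons depend on this pathway for most of their ATP, and depolarisation with KCl, which opens voltage-gated calcium channels, is a common stand-in for activity in culture. c-Fos pairs with Jun proteins to form the transcription factor AP-1 and is among the first proteins made after such stimulation.

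The targeted gene checked the labels. Fos had intensities of 118 and 152 with c-Fos shRNA, against 261 and 232 with control shRNA, at 0 h. At 1 h the values were 7728 and 9623 with c-Fos shRNA and 14633 and 14719 with control shRNA, at 3 h 3763 and 4297 against 13638 and 13308, and at 6 h 3142 and 3340 against 11960 and 11898. Fos was thus lower on both c-Fos shRNA arrays at each time, by a log2 difference of -0.77 ± 0.10 (standard error) at 0 h (limma, adjusted p = 0.000176) and -1.85 ± 0.10 at 6 h (adjusted p = 5.29e-07). It still rose with KCl in both arms, by 5.85 and 5.83 on the log2 scale at 1 h and by 4.45 and 5.52 at 6 h (c-Fos and control shRNA), so Fos was lowered and not removed. All 6 neuron markers passed the filter, and their summed intensity ran from 61056 to 66997 over c-Fos shRNA arrays and from 59988 to 67697 over control arrays. Astrocyte markers were present too, with sums of 14814 to 19594 and 16868 to 22353. So were markers of the oligodendrocyte lineage, with sums of 10417 to 16331 and 9164 to 17547. Markers of dividing cells and progenitors had sums of 7707 to 10424 and 8099 to 11019. Only 2 of 6 microglial markers passed the filter.

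The respiratory chain genes were among the brightest on the arrays. By mean intensity 65 of the 79 lay above the 90th percentile of all genes and 50 above the 95th. The median percentile was 98.8 for complex V, 96 for complex III, 95.9 for complex IV, 95.7 for complex I and 91.1 for complex II. The brightest member of each complex was Ndufa1 (mean intensity 11086), Sdhb (6315), Uqcrb (16691), Cox6a1 (16605) and Atp5md (13020). Such values place a probe set within the range of the array and do not rank amounts of mRNA between genes. The other end held mostly tissue-restricted isoforms counted with complex IV. Among the tested genes Cox7b2 (66.1), Ndufa4l2 (71.4), Cox7a1 (126), Cox4i2 (128), Cox6a2 (196), Cox8c (336) and Cox6b2 (566) were dim. So were the tested probe sets of 2 widely expressed subunits, Ndufb1 (431) and Cox7c (466). Dimmest were Cox8b (31.8) and Ndufb4 (39.15), which fell below the filter.

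The upstream sequences of 7 members are given. Uqcrh, Atp5pb, Ndufb10 and Atp5g1 had the largest average differences with c-Fos shRNA, and Ndufv2, Sdhb and Uqcrfs1 were among the genes that fell with KCl in both arms; this choice was made after values and matches were seen. The windows come from RefSeq on build GRCm38.p6 and hold 250 bases before and 50 after the annotated start, written in the direction of transcription. Of the 79 members 64 had a window. Both strands were searched for 4 motifs: AP-1 (TGANTCA), the cAMP response element (TGACGTCA), the nuclear respiratory factor 1 site NRF1 (GCGCATGC) and the ETS core bound by GABP (CCGGAAG). No motif contains another. Capitals mark the matches, and a sequence with no capitals holds none.
Uqcrh, chr4:116075021-116075320, minus strand: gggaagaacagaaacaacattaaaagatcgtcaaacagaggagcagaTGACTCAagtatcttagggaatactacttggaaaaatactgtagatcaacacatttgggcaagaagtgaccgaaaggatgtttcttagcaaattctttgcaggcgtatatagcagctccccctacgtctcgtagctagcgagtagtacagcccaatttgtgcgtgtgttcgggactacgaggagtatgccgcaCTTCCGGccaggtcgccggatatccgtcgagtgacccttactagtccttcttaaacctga
Atp5g1, chr11:96075582-96075881, minus strand: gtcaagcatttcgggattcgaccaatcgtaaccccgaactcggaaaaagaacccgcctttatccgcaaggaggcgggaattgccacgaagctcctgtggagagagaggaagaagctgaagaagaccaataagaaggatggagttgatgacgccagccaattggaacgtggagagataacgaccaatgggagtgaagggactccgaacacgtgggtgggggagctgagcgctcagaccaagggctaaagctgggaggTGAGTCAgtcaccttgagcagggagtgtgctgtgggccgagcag
Atp5pb, chr3:105959214-105959513, minus strand: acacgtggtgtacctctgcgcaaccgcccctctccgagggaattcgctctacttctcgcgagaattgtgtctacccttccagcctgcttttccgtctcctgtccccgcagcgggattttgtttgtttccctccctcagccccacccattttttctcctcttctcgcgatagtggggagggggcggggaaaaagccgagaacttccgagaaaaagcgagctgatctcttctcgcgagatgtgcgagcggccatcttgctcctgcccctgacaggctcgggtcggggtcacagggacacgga
Ndufb10, chr17:24724374-24724673, minus strand: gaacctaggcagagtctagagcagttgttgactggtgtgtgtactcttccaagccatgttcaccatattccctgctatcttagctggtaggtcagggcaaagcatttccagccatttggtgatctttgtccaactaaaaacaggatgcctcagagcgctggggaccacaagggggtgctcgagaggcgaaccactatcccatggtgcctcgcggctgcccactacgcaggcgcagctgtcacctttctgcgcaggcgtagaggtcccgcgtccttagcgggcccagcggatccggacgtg
Ndufv2, chr17:66101510-66101809, minus strand: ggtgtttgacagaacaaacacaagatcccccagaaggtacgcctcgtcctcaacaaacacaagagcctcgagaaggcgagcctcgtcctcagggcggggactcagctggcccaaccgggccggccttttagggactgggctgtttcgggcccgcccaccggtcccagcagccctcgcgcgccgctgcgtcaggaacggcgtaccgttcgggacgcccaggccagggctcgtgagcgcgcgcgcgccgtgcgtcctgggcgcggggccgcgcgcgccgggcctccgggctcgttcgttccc
Sdhb, chr4:140961021-140961320, plus strand: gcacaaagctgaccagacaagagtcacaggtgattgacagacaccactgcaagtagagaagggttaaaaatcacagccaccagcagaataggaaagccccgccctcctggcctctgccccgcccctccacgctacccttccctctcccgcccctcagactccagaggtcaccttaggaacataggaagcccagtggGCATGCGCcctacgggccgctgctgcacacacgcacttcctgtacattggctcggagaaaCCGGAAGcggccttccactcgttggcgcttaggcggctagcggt
Uqcrfs1, chr13:30545267-30545566, minus strand: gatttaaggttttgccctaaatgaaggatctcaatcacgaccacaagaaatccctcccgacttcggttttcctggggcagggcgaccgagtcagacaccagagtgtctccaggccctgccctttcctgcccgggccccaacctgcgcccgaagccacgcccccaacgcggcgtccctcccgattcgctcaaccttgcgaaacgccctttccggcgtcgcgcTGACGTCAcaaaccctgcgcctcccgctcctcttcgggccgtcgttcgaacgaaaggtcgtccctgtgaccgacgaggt

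In these windows Uqcrh held an AP-1 match 203 bases before the start and an ETS match 10 bases before it, and Atp5g1 an AP-1 match within the first bases of the transcript. Sdhb held an NRF1 match 54 bases before the start and an ETS match just after it, and Uqcrfs1 a cAMP response element 29 bases before the start. Atp5pb, Ndufb10 and Ndufv2 held none of the 4 motifs. Over all members with a window, ETS matches were found in 17 of 64 genes (26.6%), against 9.93% of the 27025 genes with a window. NRF1 matches were found in 9 (14.1%), against 3.05%. AP-1 matches were found in 7 (10.9%), against 8.97%, and cAMP response elements in 3 (4.69%), against 2.03%. The 7 genes with an AP-1 match were Atp5c1, Atp5g1, Cox7c, Ndufa13, Ndufa5, Ndufa9 and Uqcrh. A match is a run of letters and not a measured site, and the shares are descriptions with no test.

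The first question of the design is which genes change with KCl in each arm. Changes and differences are given on the log2 scale. After 1 h of KCl no respiratory chain gene passed the test in either arm, while 3.38% of all tested genes passed with c-Fos shRNA and 3.12% with the control shRNA. A gene passed, and is called higher or lower here, at a Benjamini-Hochberg adjusted p under 0.05 over all tested genes in limma. At an unadjusted p under 0.05 there were 3 members with c-Fos shRNA and 7 with the control shRNA, or 3.9% and 9.09% of the members, against 10.9% and 11.4% of all genes. With the replicate block, none passed with c-Fos shRNA (8.33% of all genes) and 5 with control shRNA, 2 higher and 3 lower (8.12%). Log2 changes of the 77 members lay between -0.19 and 0.20 with c-Fos shRNA and between -0.49 and 0.40 with control shRNA.

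At 3 and 6 h of KCl a minority of the respiratory chain genes changed, most of them downward, and complex I held the larger part of the calls. At 6 h with c-Fos shRNA 4 were higher and 23 lower of 77, where 41% of all genes were called, 16.1% higher and 24.9% lower. With control shRNA 6 were higher and 16 lower, where 44.1% of all genes were called, 16.7% higher and 27.4% lower. At 3 h the counts were 2 higher and 12 lower with c-Fos shRNA, beside 28.2% of all genes (9.9% higher, 18.3% lower), and 4 higher and 12 lower with control shRNA, beside 30.2% (11% higher, 19.3% lower). The share of members called was thus below the share of all genes in all 4 comparisons. Without normalization the 3 h split became 2 higher and 5 lower with c-Fos shRNA (26.1% of all genes called) and 4 higher and 2 lower with control shRNA (27.8%). With arrays shifted to one median it became 3 and 4 (28%) and 4 and 0 (28.9%). At 6 h with control shRNA both of these scalings gave 6 higher and 8 lower (41.6% and 43% of all genes called). With the replicate block the 3 h counts were 4 higher and 28 lower with c-Fos shRNA (42.9% of all genes called) and 5 higher and 24 lower with control shRNA (44.4%).

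**Figure D1:**
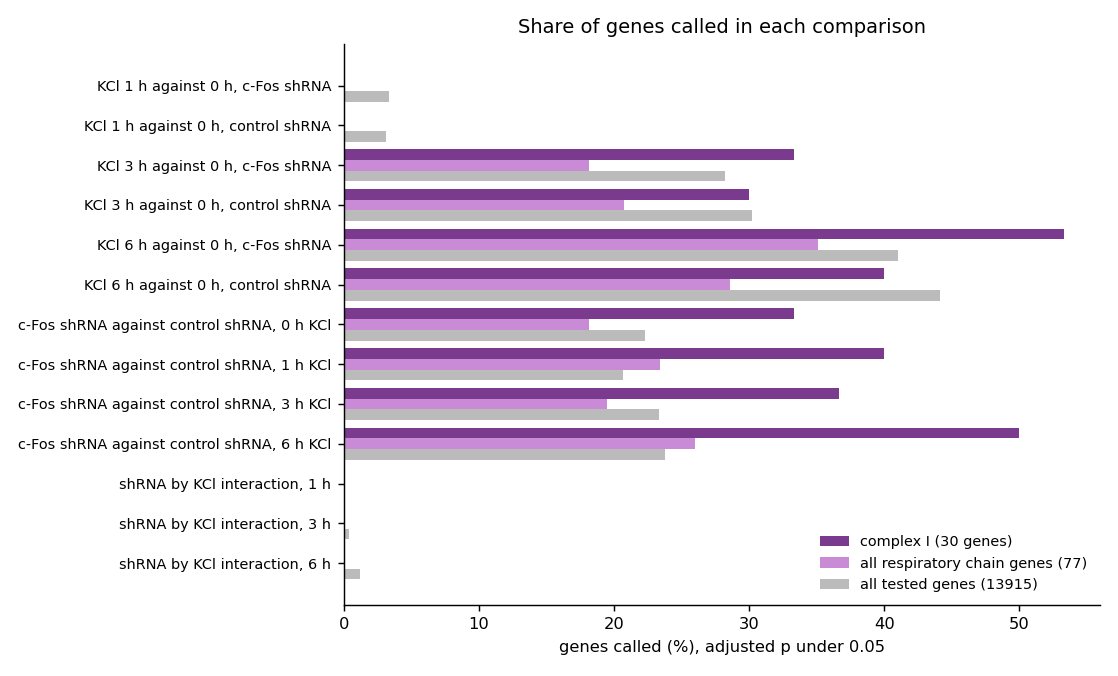
Percentage of genes called (horizontal axis, adjusted p under 0.05) in each comparison, for the 30 tested complex I genes, the 77 tested respiratory chain genes and all 13915 tested genes. At 1 h no respiratory chain gene was called, and at 6 h complex I reached 53.3% with c-Fos shRNA and 40% with the control shRNA, beside 41% and 44.1% of all genes.

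Single arrays moved some of these counts, in fits that left 1 array in a group. Shares of all genes called in those fits are not given here, so the counts do not compare members with other genes. At 3 h with c-Fos shRNA the 14 calls became 9 without 0 h replicate 1, 7 without 0 h replicate 2, and 8 without either 3 h array. At 3 h with control shRNA the 16 calls became 6 without 0 h replicate 1, 8 without 3 h replicate 1 and 6 without 3 h replicate 2. At 6 h with c-Fos shRNA the 27 calls became 15 without 6 h replicate 1. Sizes were small throughout. No member changed by 2-fold or more in any comparison, while 7.8% of all genes did at 6 h with c-Fos shRNA and 10.2% with the control shRNA. The median absolute log2 change of the members at 6 h was 0.10 with c-Fos shRNA and 0.08 with the control shRNA, against 0.28 and 0.30 over all tested genes. Among genes above the 95th percentile of level, 32% of the 50 members and 37% of 859 other genes were called with c-Fos shRNA. With control shRNA these shares were 26% and 38.6%. The median absolute changes of these members and other genes at 6 h were 0.07 and 0.11 with c-Fos shRNA. They were 0.07 and 0.12 with control shRNA. At 3 h the same medians were 0.08 and 0.08 with c-Fos shRNA, and 0.09 and 0.08 with control shRNA. The arrays measured RNA of whole cultures, so fewer cells of a type and less RNA per cell cannot be told apart.

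The lower calls at 6 h took the largest shares of complexes II and I. With c-Fos shRNA 15 of 30 complex I genes, 3 of 4 complex II genes, 2 of 8 complex III genes, 1 of 18 complex IV genes and 2 of 17 complex V genes were lower. With control shRNA the counts were 10, 2, 1, 2 and 1. Among all genes, 27.4% were called lower in the control arm and 24.9% in the c-Fos arm. Of the complex I genes, Ndufa8, Ndufs1, Ndufs3 and Ndufv2 alone stayed lower in the control arm without normalization and after a median shift. In the c-Fos arm these stayed lower too, as did Ndufa6, Ndufa10, Ndufb10, Ndufs7 and Ndufs8. Shares of all genes that stayed lower under these scalings are not given here. The difference between complexes was not tested. The median log2 change of complex I was -0.14 with c-Fos shRNA and -0.08 with the control shRNA, beside 0.00 and 0.02 for complex IV and -0.06 and -0.07 for all tested genes. In the plot by complex the medians of complexes IV and V lie near 0, and most points of complex I lie below 0. Single genes of complex IV lie far from 0, with changes from -0.57 to 0.73 with control shRNA.

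**Figure D2:**
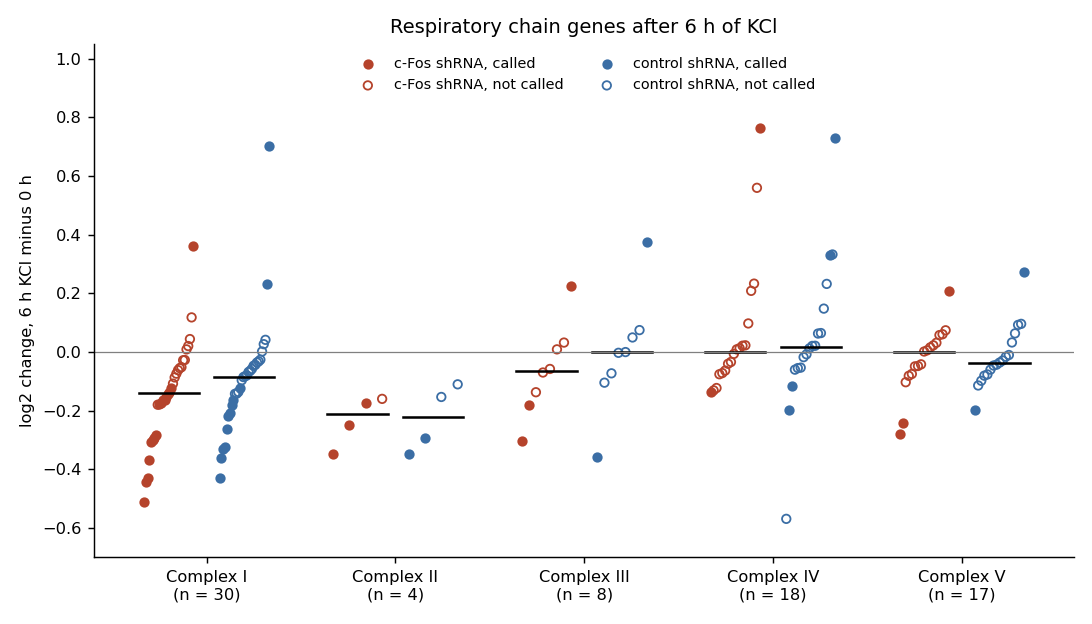
Log2 change after 6 h of KCl (vertical axis) of each tested respiratory chain gene, by complex (horizontal axis) and shRNA; filled points passed the test, open points did not, and black lines are medians. All 4 complex II genes lie below 0 in both arms, and Cox7c and Ndufb1 lie highest in complexes IV and I.

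The subunits that hold iron-sulphur clusters were among the genes that fell. This grouping was made after the values were seen and carries no test. All 7 of them (Ndufs1, Ndufs7, Ndufs8, Ndufv1, Ndufv2, Sdhb and Uqcrfs1) were lower at 6 h with c-Fos shRNA, and 5 of 7 with control shRNA, beside 24.9% and 27.4% of all genes called lower. Without normalization these counts of lower calls were 6 and 4, where 38.5% and 41.6% of all genes were called either way. With arrays shifted to one median they were 7 and 4 (40.7% and 43% called either way). Ndufs1, which holds several clusters of complex I, had 2133 and 2244 at 6 h, against 2967 and 2969 at 0 h, with c-Fos shRNA, and 2378 and 2529, against 3322 and 3135, with control shRNA. Both 6 h arrays lay below both 0 h arrays in each arm. The log2 change was -0.44 (adjusted p = 5.38e-05) with c-Fos shRNA and -0.43 (adjusted p = 5.23e-05) with control shRNA.

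Ndufv2, which binds a cluster next to the NADH site, had 4510 and 4795 at 6 h, against 6601 and 6572 at 0 h, with c-Fos shRNA, and 5471 and 6047, against 7126 and 6982, with control shRNA. Its log2 change was -0.51 (adjusted p = 3.59e-06) with c-Fos shRNA and -0.36 (adjusted p = 4.59e-05) with control shRNA. In control neurons its 3 probe sets were all called lower, with log2 changes of -0.36, -0.45 and -0.46. Ndufv1, its partner and the subunit that binds NADH and flavin, was lower too, with log2 changes of -0.15 with c-Fos shRNA and -0.18 with the control shRNA.

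Ndufs3, a core subunit of the peripheral arm without a cluster, had 4445 and 4471 at 6 h, against 5386 and 5496 at 0 h, with c-Fos shRNA, and 3838 and 4069, against 4711 and 4808, with control shRNA. The changes were -0.30 (adjusted p = 9.11e-05) and -0.32 (adjusted p = 4.66e-05). Ndufa8, an accessory subunit, had 4656 and 5027, against 5878 and 5831, with c-Fos shRNA, and 4701 and 5211, against 6059 and 5882, with control shRNA, a change of -0.29 and -0.33. For both genes the 6 h arrays lay below the 0 h arrays in each arm. Ndufs7 and Ndufs8, which hold the last clusters on the way to ubiquinone, fell with c-Fos shRNA, with log2 changes of -0.37 and -0.43. With control shRNA their log2 changes were -0.14 and -0.14 and did not pass (adjusted p = 0.121 and 0.183); with the replicate block Ndufs7 passed (adjusted p = 0.0432) and Ndufs8 did not. The difference between the arms is given with the interaction. Ndufa6, Ndufa10, Ndufa12 and Ndufb9, accessory subunits, were lower in both arms, with log2 changes of -0.28, -0.18, -0.16 and -0.14 with c-Fos shRNA and -0.26, -0.21, -0.12 and -0.17 with control shRNA. For Ndufa12 the sign turned with unsuffixed probe sets.

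In complex II, Sdhb, the cluster-bearing subunit, had 5253 and 5334 at 6 h, against 6487 and 6768 at 0 h, with c-Fos shRNA, and 5745 and 5934, against 6913 and 6775, with control shRNA. It was lower on every 6 h array, by a log2 change of -0.35 (adjusted p = 3.90e-05) with c-Fos shRNA and -0.29 (adjusted p = 0.000121) with control shRNA. Sdhd, a membrane anchor, had 2902 and 3177, against 3261 and 3453, with c-Fos shRNA and 2413 and 2895, against 3095 and 3475, with control shRNA. Its change passed with control shRNA (-0.35, adjusted p = 0.0129) and not with c-Fos shRNA (-0.16, adjusted p = 0.234, and passed there too with the replicate block). With c-Fos shRNA Sdhc, the other anchor, changed by -0.25 and passed, and Sdha, the flavin subunit, by -0.17 on its brightest probe set. Another probe set of Sdha was called higher there, and the mean of its probe sets gave 0.07. The lower call of Sdha was not made under all 3 scalings.

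In complex III, Uqcrfs1, the Rieske iron-sulphur protein, had 5257 and 5796 at 6 h, against 6749 and 6684 at 0 h, with c-Fos shRNA, and 5423 and 5892, against 6753 and 7075, with control shRNA. The 6 h arrays lay below the 0 h arrays in both arms, with log2 changes of -0.30 (adjusted p = 0.000351) and -0.36 (adjusted p = 8.14e-05). Uqcrh, the hinge protein that helps cytochrome c dock, moved the other way, with 10050 and 10371, against 8749 and 8335, with c-Fos shRNA and 5799 and 6551, against 4271 and 4919, with control shRNA. It rose by 0.23 (adjusted p = 0.0314) and 0.38 (adjusted p = 0.00147).

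Few genes rose. Cox7c, a small complex IV subunit read here by a dim probe set, had 520 and 648 at 6 h, against 336 and 369 at 0 h, with c-Fos shRNA, and 485 and 579, against 329 and 338, with control shRNA. Ndufb1, a small accessory subunit of complex I and also dim, had 404 and 448, against 336 and 350, and 524 and 555, against 343 and 350. Their log2 changes were 0.76 and 0.36 with c-Fos shRNA and 0.73 and 0.70 with control shRNA. These were the largest rises among called members, and groups did not overlap. The second probe set of Cox7c, dimmer still, gave 0.33 with control shRNA and did not pass (adjusted p = 0.176).

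Atp5d, the delta subunit of the F1 head, had 9374 and 10233, against 8102 and 8449, with c-Fos shRNA and 9329 and 9843, against 7487 and 7894, with control shRNA, rises of 0.21 and 0.27. The other 4 F1 subunits did not pass in either arm. With control shRNA Ndufb2, an accessory subunit of complex I, had 5062 and 5639 at 6 h, against 4363 and 4354 at 0 h, and rose by 0.23. The testis-type isoform Cox8c had 357 and 368, against 286 and 321, and rose by 0.33 (adjusted p = 0.0341). The 5 rises called under all 3 scalings with control shRNA were those of Atp5d, Cox7c, Ndufb1, Ndufb2 and Uqcrh.

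**Figure D3:**
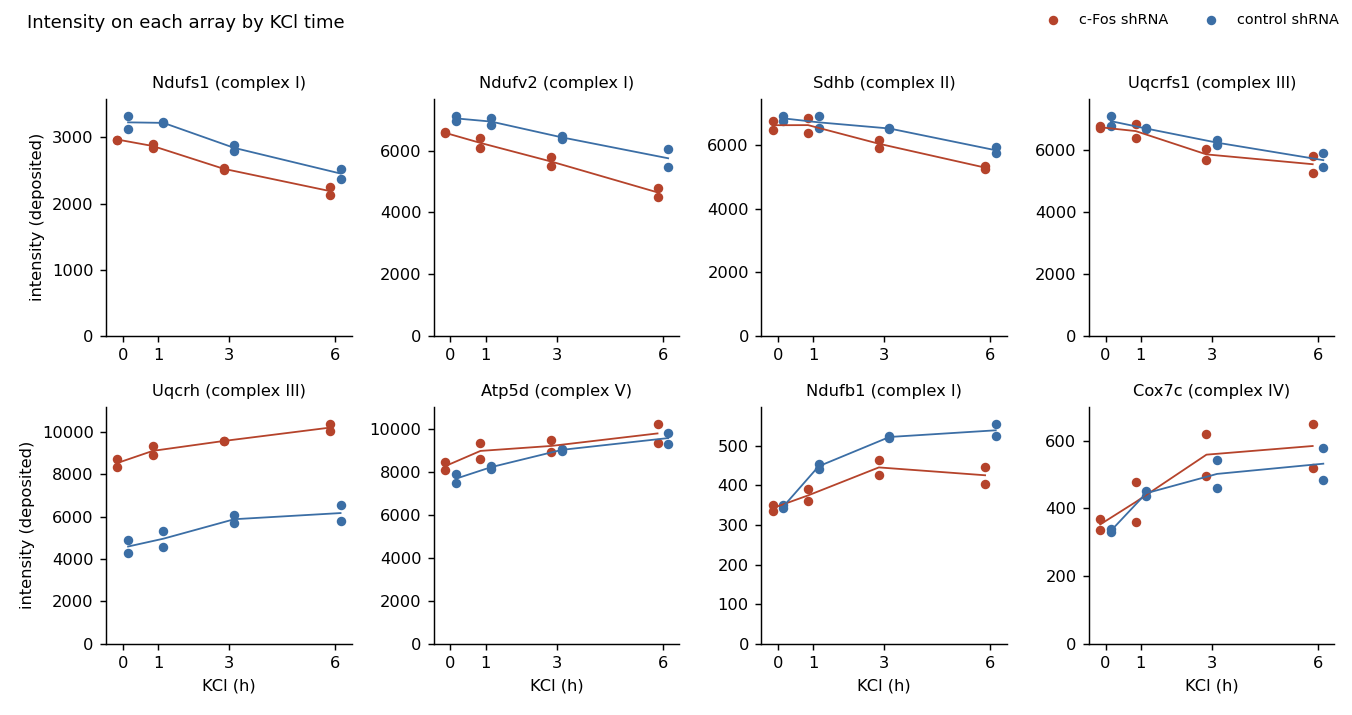
Deposited intensity (vertical axis, from 0) on each of the 16 arrays against hours of KCl (horizontal axis) for 4 genes that fell (top row) and 4 that rose (bottom row); points are arrays and lines join group means. In Ndufs1, Ndufv2, Sdhb and Uqcrfs1 both arms decline from 1 h to 6 h, while Uqcrh is higher with c-Fos shRNA at every time.

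Ndufs1 changed by -0.08, -0.25 and -0.44 at 1, 3 and 6 h with c-Fos shRNA and by -0.05, -0.23 and -0.43 with control shRNA, and Uqcrfs1 by -0.05, -0.23 and -0.30 and by -0.09, -0.22 and -0.36. At 3 h the same direction was called in both arms for 11 members, or 14.3%, beside 22.1% of all genes. At 6 h this held for 16 members, or 20.8%, beside 32.7% of all genes. These were Atp5d, Cox7c, Ndufb1 and Uqcrh, higher, and 12 lower genes (Atp5pb, Ndufa6, Ndufa8, Ndufa10, Ndufa12, Ndufb9, Ndufs1, Ndufs3, Ndufv1, Ndufv2, Sdhb and Uqcrfs1). No member was called in opposite directions. Of the lower calls at 6 h, 13 of 23 with c-Fos shRNA and 7 of 16 with control shRNA were also made without normalization and with a median shift. The 7 were Ndufa8, Ndufs1, Ndufs3, Ndufv2, Sdhb, Sdhd and Uqcrfs1. Of the 7 astrocyte markers 1 was lower at 6 h in each arm and none was higher. Of all genes 24.9% were lower and 16.1% higher with c-Fos shRNA, and 27.4% and 16.7% with control shRNA. The part of cell composition in the changes of the respiratory chain genes was not tested.

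The second question of the design is which genes differ with c-Fos shRNA. In silenced neurons, 3 respiratory chain genes were higher and 11 lower with c-Fos shRNA than with control shRNA, where 22.3% of all genes were called, 12% higher and 10.3% lower. At 1 h of KCl 6 were higher and 12 lower, where 20.7% of all genes were called, 10.8% higher and 9.98% lower. At 3 h they were 2 and 13, beside 23.3%, 12.4% higher and 10.9% lower. At 6 h they were 3 and 17, beside 23.8%, 13.4% higher and 10.4% lower. Complex I supplied 8, 10, 10 and 13 of the lower calls at 0, 1, 3 and 6 h, from 30 genes, and complex IV none at any single time. With the replicate block the counts at 0, 1 and 3 h became 10 higher and 17 lower, 12 and 19, and 7 and 21, where 38.8%, 37.9% and 40.4% of all genes were called. With arrays shifted to one median the 0 h split was 7 higher and 10 lower (21.6% of all genes called).

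At 1 h the 18 calls became 10 without either c-Fos shRNA array, 8 without control replicate 1 and 11 without control replicate 2. At 3 h the 15 calls became 9 without c-Fos shRNA replicate 1 and 7 without control replicate 1. These fits left 1 array in a group, and the shares of all genes called in them are not given here. On the average over the 4 times, with 8 arrays a side, 18 members were higher and 27 lower. Beside these, 47.9% of all genes were called, 25.2% higher and 22.7% lower. Without normalization the split of members was 9 and 23 (45.1% of all genes called), and with a median shift 21 and 21 (47.3%). Complex I had 4 higher and 17 lower of 30, complex II 2 and 1 of 4, complex III 2 and 1 of 8, complex IV 4 and 3 of 18, and complex V 6 and 5 of 17. Most of these differences were small, and 1 member exceeded 0.5 on the log2 scale. Among genes above the 95th percentile of level, 54% of the 50 members and 57.7% of 859 other genes were called on the average. At 0, 1, 3 and 6 h 16%, 22%, 18% and 22% of those members were called. Of the other genes 29%, 26.8%, 26.7% and 32.1% were called at these times.

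**Figure D4:**
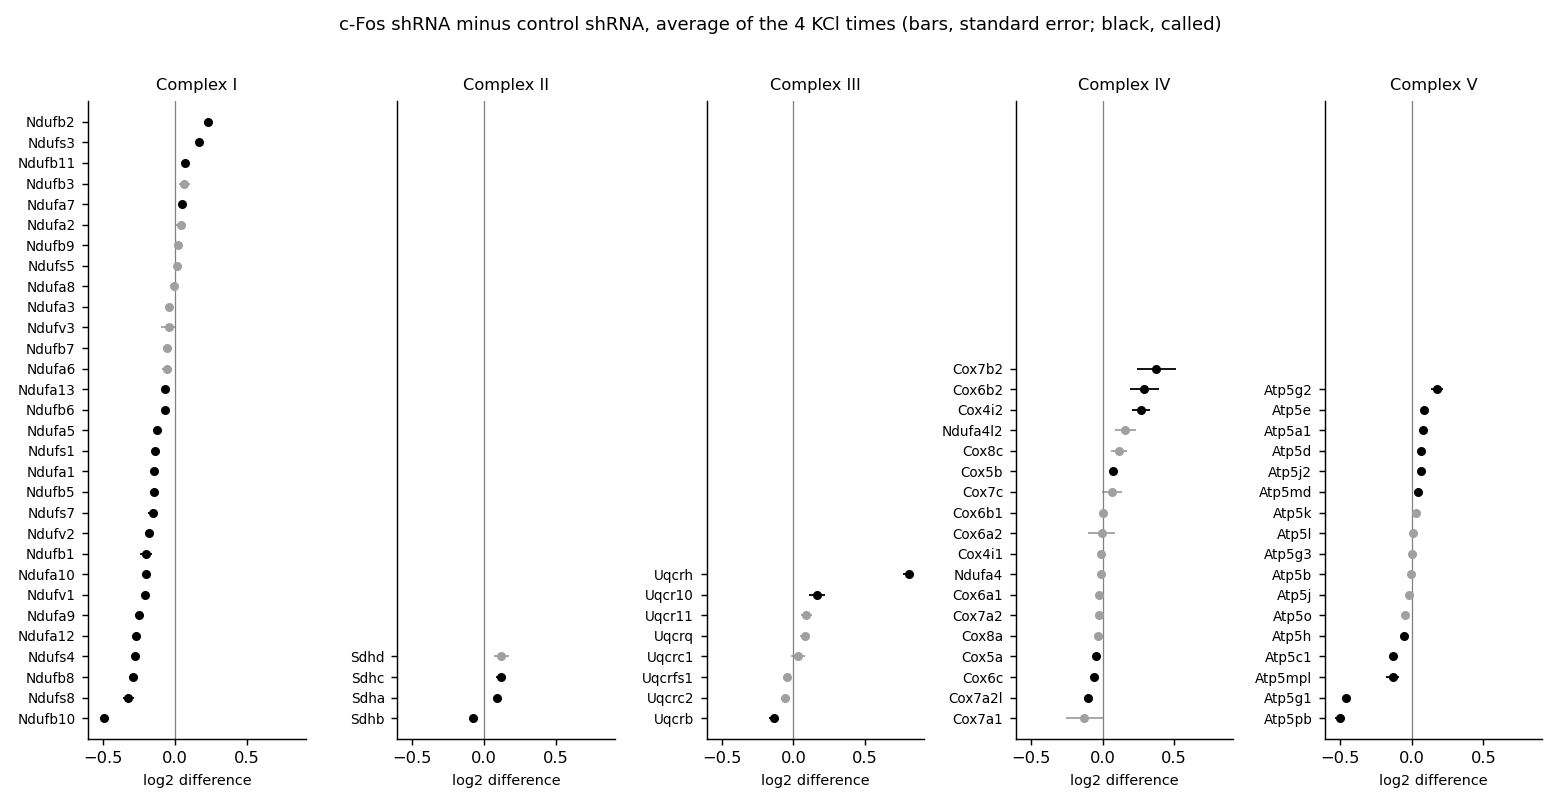
Log2 difference between c-Fos shRNA and control shRNA, averaged over the 4 KCl times (horizontal axis), of each tested gene, by complex; bars are standard errors and black points passed the test. Uqcrh stands highest, and Ndufb10, Atp5pb and Atp5g1 lowest.

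At all 4 times the same call was made for 12 members. Lower at every time were 10 (13% of the tested members, beside 4.97% of all genes): Ndufa1, Ndufa9, Ndufa10, Ndufa12, Ndufb8, Ndufb10, Ndufs4 and Ndufv1 of complex I, and Atp5g1 and Atp5pb of complex V. Higher at every time were Ndufb2 and Uqcrh (2.6%, beside 6.48% of all genes). Under all 3 scalings 6 of the 10 were lower at every time (Atp5g1, Atp5pb, Ndufa9, Ndufa10, Ndufa12 and Ndufb10), beside 3.99% of all genes, and of the 2 only Uqcrh was higher, beside 5.45%. With each array left out in turn, 4 were lower at every time in all fits (Atp5g1, Atp5pb, Ndufa12 and Ndufb10), beside 2.29% of all genes, and Uqcrh was higher, beside 2.89%. The 4 times share no arrays, but all c-Fos shRNA groups carry the same hairpin. Over all 16 arrays the c-Fos shRNA and control ranges did not overlap for 12 of 77 members, where this held for 9.11% of all genes, 5.06% higher and 4.05% lower. Of the 12, 11 were lower (the 10 and Atp5c1, whose sign turned with other probe sets) and Uqcrh was higher.

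Uqcrh ran from 8335 to 10371 (median 9451) over the 8 c-Fos shRNA arrays and from 4271 to 6551 (median 5520) over the 8 control arrays. All c-Fos shRNA arrays lay above all control arrays, with log2 differences of 0.89, 0.89, 0.70 and 0.74 at 0, 1, 3 and 6 h and 0.80 ± 0.04 (standard error) on average (adjusted p = 7.24e-09). A second, separate probe set of Uqcrh gave 0.65 on average (adjusted p = 3.12e-07 over all tested probe sets).

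Atp5g1, 1 of 3 genes for the c subunit of the membrane rotor, ran from 4273 to 4813 (median 4664) with c-Fos shRNA and from 5984 to 6971 (median 6356) with control shRNA. Its ranges did not overlap, and the average difference was -0.46 ± 0.03 (adjusted p = 2.92e-08). Of the other genes for the same protein, Atp5g2 was higher by 0.18 (adjusted p = 0.0041), and Atp5g3 had a difference of 0.00 and did not pass (adjusted p = 0.85). Atp5pb, the b subunit of the stalk, ran from 7454 to 9864 (median 9027) with c-Fos shRNA and from 11727 to 13829 (median 12641) with control shRNA, without overlap, a difference of -0.50 ± 0.04 (adjusted p = 3.07e-07).

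In complex I, Ndufb10, an accessory subunit of the membrane arm, ran from 2451 to 3226 (median 2870) with c-Fos shRNA and from 3963 to 4244 (median 4011) with control shRNA. It differed by -0.42, -0.40, -0.49 and -0.66 at 0, 1, 3 and 6 h and by -0.49 ± 0.03 on average (adjusted p = 4.97e-08). Ndufb8, another membrane-arm subunit, ran from 5567 to 6573 (median 6142) with c-Fos shRNA and from 7153 to 7842 (median 7443) with control shRNA, a difference of -0.29 ± 0.03 (adjusted p = 1.19e-05). Neither gene's ranges overlapped. Ndufs8 ran from 3227 to 4461 (median 3793) with c-Fos shRNA and from 4451 to 5119 (median 4818) with control shRNA, ranges that met at 1 array each, and differed by -0.33 ± 0.04 (adjusted p = 1.81e-05).

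Of the 6 core subunits of complex I, 5 were lower on average (Ndufs1, Ndufs7, Ndufs8, Ndufv1 and Ndufv2), beside 22.7% of all genes, and Ndufs3 was higher, beside 25.2%, by 0.17 (adjusted p = 2.57e-05). Ndufs3 thus stood higher with c-Fos shRNA and fell with KCl in both arms. Ndufb2 ran from 5071 to 5969 (median 5507) with c-Fos shRNA and from 4209 to 5639 (median 4655) with control shRNA, and was higher by 0.23 (adjusted p = 2.97e-05) although the ranges overlapped. At 6 h its call was not made under all 3 scalings, and the mean of its probe sets gave -0.0206.

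**Figure D5:**
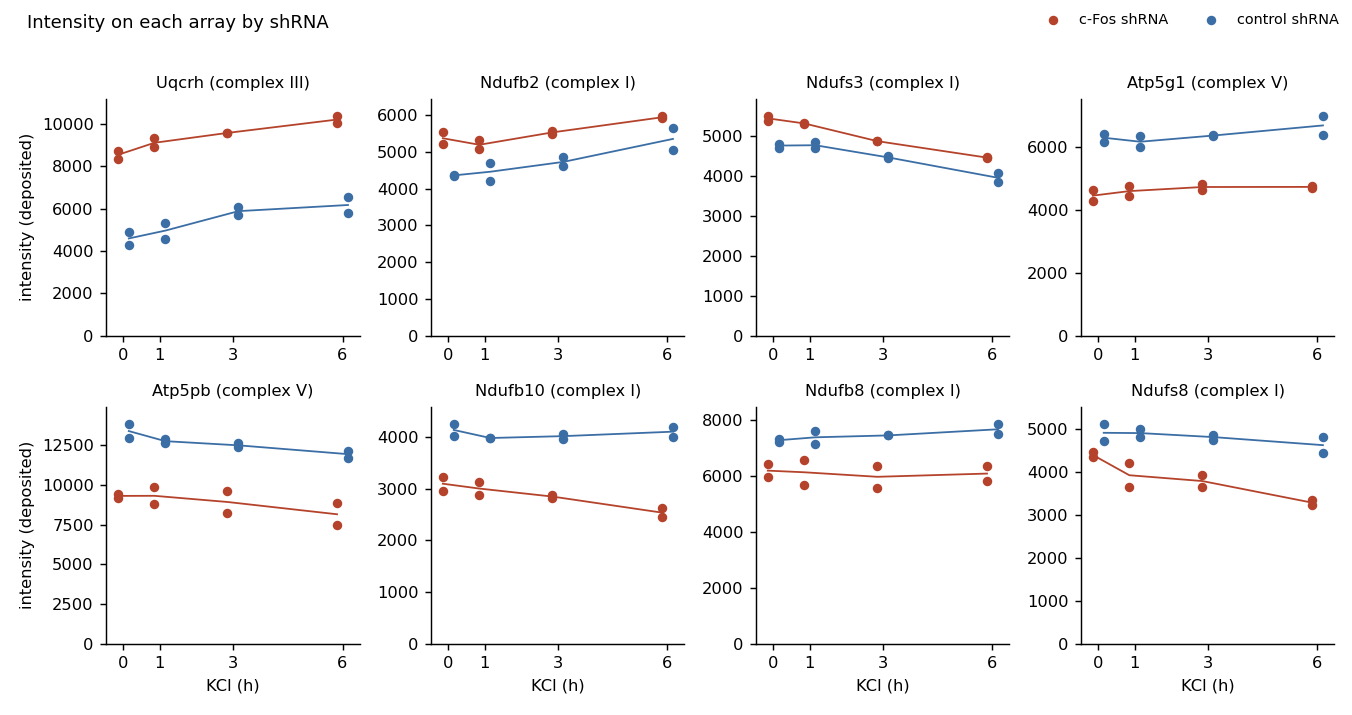
Deposited intensity (vertical axis, from 0) on each array against hours of KCl (horizontal axis) for 3 genes higher and 5 lower with c-Fos shRNA; points are arrays and lines join group means. For Atp5g1, Atp5pb, Ndufb10 and Ndufb8 every c-Fos shRNA array lies below every control array.

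Among tissue-restricted isoforms counted with complex IV, 3 of 7 tested were higher on average, beside 25.2% of all genes. Cox7b2 ran from 38.9 to 111 (median 80.6) with c-Fos shRNA and from 35.1 to 81.8 (median 50.2) with control shRNA. Cox6b2 ran from 572 to 693 (median 609) and from 414 to 611 (median 508), and Cox4i2 from 127 to 163 (median 135) and from 107 to 136 (median 112). The differences were 0.38, 0.29 and 0.27 (adjusted p = 0.0348, 0.0287 and 0.00495), and the ranges of all 3 overlapped. The call of Cox7b2 was not made under all 3 scalings, and those of Cox7b2 and Cox6b2 were lost when some single arrays were left out. For 2 widely expressed counterparts the differences were 0.00 for Cox6b1 and -0.01 for Cox4i1, neither of which passed (adjusted p = 0.871 and 0.71). Cox6a1, the brightest gene of complex IV, ran from 15769 to 17816 (median 16326) with c-Fos shRNA and from 16064 to 17874 (median 16781) with control shRNA. It differed by -0.02 (adjusted p = 0.385) and changed by 0.02 and -0.02 at 6 h of KCl with c-Fos and control shRNA. Uqcrb, the brightest gene of complex III, ran from 14877 to 18294 (median 15403) with c-Fos shRNA and from 16536 to 19185 (median 16987) with control shRNA, and differed by -0.14 (adjusted p = 0.00495). Ndufa1 of complex I ran from 10016 to 11019 (median 10534) with c-Fos shRNA and from 11372 to 11975 (median 11643) with control shRNA, without overlap, and differed by -0.15 (adjusted p = 1.50e-05). Atp5md of complex V ran from 12968 to 13616 (median 13223) with c-Fos shRNA and from 12371 to 13753 (median 12793) with control shRNA, and differed by 0.04 (adjusted p = 0.039).

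Some other measures moved with the shRNA, and some did not. The array's control probe set for the 3′ end of 18S ribosomal RNA averaged 4241 ± 241 over c-Fos shRNA arrays and 5126 ± 279 over control arrays (SD, n = 8 each), with no overlap. The control probe set for the 3′ end of Gapdh averaged 11828 ± 661 and 12774 ± 535, with ranges that overlapped. That for the 3′ end of beta-actin averaged 19289 ± 569 and 19279 ± 441. The other 18S control probe sets had ranges that overlapped too. Of the 7 astrocyte markers, 1 was higher and 3 were lower on average, where 25.2% of all genes were higher and 22.7% lower. Of the other cell marker lists, 3 of 6 neuronal genes were higher and 3 lower, 2 and 1 of 4 for excitatory neurons, 0 and 1 of 5 for inhibitory neurons, 0 and 1 of 6 for the oligodendrocyte lineage, 0 and 2 of 5 for dividing cells, and none for microglia (2 tested) or vascular cells (3 tested). The part of these in the differences of the respiratory chain genes was not tested.

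The third question is whether the KCl response itself differs with c-Fos shRNA, the shRNA by KCl interaction. No member was called at 1, 3 or 6 h, where 0.0431%, 0.402% and 1.24% of all genes were. At an unadjusted p under 0.05 there were 2, 0 and 9 members, or 2.6%, 0% and 11.7%, against 3.02%, 7.91% and 14% of all genes. At 6 h the largest of the 9 were Ndufb1 at -0.34 ± 0.12, Ndufs8 at -0.29 ± 0.11 and Ndufb10 at -0.24 ± 0.08 (standard error), where a negative value means a lower KCl change with c-Fos shRNA (adjusted p = 0.203, 0.24 and 0.2). All 9 were negative. Of all 77 members at 6 h, 43 had a negative value and 34 a positive one. Over all tested genes 0.783% were called lower and 0.453% higher at 6 h. With the replicate block 3 passed at 6 h, Atp5o, Ndufs8 and Uqcrb, where 11.3% of all genes passed. Ndufs7, which was called in 1 arm only, had an interaction of -0.22 ± 0.10 (adjusted p = 0.332).

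Other genes of the pathway were read from lists of known members. Assembly factors build the complexes and are not part of them. At 6 h of KCl, of 15 factors for complex I, 0 were higher and 7 lower with c-Fos shRNA and 0 and 8 with control shRNA, and of 29 for complexes II to V, 2 and 15, and 2 and 16. Of all genes 16.1% were higher and 24.9% lower with c-Fos shRNA, and 16.7% and 27.4% with control shRNA. The complex I factor Tmem126b changed by -1.21 and -1.21, and Timmdc1 by -0.99 and -0.81. Sdhaf1, which helps insert the clusters of Sdhb, changed by -1.37 and -1.21, and Cox15, which makes haem a for complex IV, by -1.12 and -1.10. Median changes were -0.27 and -0.30 for the first list, and -0.34 and -0.36 for the second. The difference between these lists and the subunits was not tested.

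Regulators of mitochondrial gene expression were split at 6 h of KCl, with 4 higher and 4 lower of 14 with c-Fos shRNA and 3 and 5 with control shRNA. The shares of all genes were 16.1% higher and 24.9% lower with c-Fos shRNA, and 16.7% and 27.4% with control shRNA. Nrf1, the factor that binds the NRF1 motif, rose by 1.94 and 2.58, and Gabpb1, a subunit of the ETS factor GABP, by 1.30 and 1.25. Tfb1m and Tfb2m, which act on mitochondrial ribosomal RNA and transcription, changed by -1.29 and -0.75 with c-Fos shRNA and -1.10 and -1.26 with control shRNA, and all 4 values passed.

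With c-Fos shRNA 2 of 16 genes of the tricarboxylic acid cycle, which supplies the chain with NADH and succinate, were higher and 9 lower on average. Of all genes 25.2% were higher and 22.7% lower on average. Suclg1 and Suclg2, subunits of succinyl-CoA ligase, differed by -0.62 and -0.63, while Cs, citrate synthase, was higher by 0.26. At 6 h of KCl 3 of the 16 were higher and 3 lower with c-Fos shRNA, and 0 and 3 with control shRNA. The shares of all genes at 6 h were 16.1% and 24.9% with c-Fos shRNA, and 16.7% and 27.4% with control shRNA. Cycs, cytochrome c, and Cyc1, the haem subunit of complex III that the symbol rule leaves out, were both lower, with log2 differences of -0.25 and -0.25. The summed intensity of both ran from 15689 to 16925 over c-Fos shRNA arrays and from 18813 to 19866 over control arrays. On that average import genes had 7 higher and 2 lower of 16, carriers and porins 3 and 2 of 11, complex I assembly factors 6 and 3 of 15, those of complexes II to V 9 and 13 of 29, and biogenesis regulators 2 and 5 of 14. At 6 h of KCl import genes had 2 higher and 7 lower with c-Fos shRNA and 0 and 6 with control shRNA, carriers and porins 1 and 5 in each arm, and neither cytochrome was called. Slc25a5, an ADP/ATP carrier, was lower, with a log2 difference of -0.80. Ndufab1, a complex I subunit outside the symbol rule, fell with 6 h of KCl, with log2 changes of -0.25 and -0.27 and was the 1 of 3 such genes called.

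Probe sets of 1 gene did not always move together. Of the 46 members with several probe sets, 44 had at least 2 that were bright enough to test. On the average over times opposite calls were made within Atp5a1 (0.08 and -0.07) and within Uqcr10 (0.17 and -0.19), and at 6 h of KCl with c-Fos shRNA within Sdha (-0.17, -0.31 and 0.61, from the brightest to the dimmest tested). Of 4 probe sets of Ndufs4, an accessory subunit of complex I, the brightest changed by 0.04 at 6 h of KCl with control shRNA and the dimmest by 2.15 (adjusted p = 1.52e-06). All 4 were lower with c-Fos shRNA on average, from -1.19 to -0.28. The chosen probe sets of 41 members carry a suffix that marks possible matches to several transcripts or genes, Uqcrh and Cox7c among them.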

How the data were processed

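RNA of 16 neuron cultures was read on single-colour arrays. The authors deposited 1 linear intensity per probe set and array, per the file headers; the software that summarised and scaled probes is not given in the sources used here. The 8 groups came from the sample titles. Array medians ran from 105 to 119, and replicate arrays correlated at 0.991 to 0.994. Of 45101 probe sets, 64 array controls were left out, and 932 that name several genes and 9160 that name none were not used.

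Intensities were set to log2(intensity + 16) and quantile normalized. Changes are given on this scale and are too small for dim genes. Each gene was read by its brightest probe set with 1 symbol, and genes were kept where its mean lay above the 30th percentile of probe sets. Means of the 8 groups were fitted over all 16 arrays with limma 3.58.1 in R 4.3.3 (lmFit, eBayes with an intensity trend, 8 residual degrees of freedom), and p-values were Benjamini-Hochberg adjusted over the 13915 tested genes. The number of arrays limits the precision. The fit was tested on simulated data with 200 changed genes.

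The members, gene lists and tests were chosen with earlier results of these data known; the classes by iron-sulphur cluster, F1 head and tissue isoform were made after values were seen. Values by array are given for the called members with the 6 largest rises and 6 largest falls at 6 h of KCl with control shRNA and the 5 largest differences each way on the average over times, and for the brightest of each complex. Same-numbered replicates deviated together: over 28 pairs of groups the correlation of their deviations was 0.364 to 0.596, so the numbers pair the arrays. Alternatives were the replicate block, no normalization, a median shift, pseudocounts of 1 and 64, no filter or the 50th percentile, other probe sets per gene, no intensity trend, and each array left out.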

Additional observations from a re-analysis of the deposited data

Results flagged for a closer look

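For 3 genes the KCl response at 6 h differed between the shRNAs once the replicate number was a block, and none passed without it (limma, shRNA by KCl interaction; negative means a lower change with c-Fos shRNA). Atp5o, the stalk subunit that joins F1 to the membrane part, had an interaction of -0.20 on the log2 scale (adjusted p = 0.0241 with the block and 0.12 without). Ndufs8 had -0.29 (adjusted p = 0.0451 and 0.24). Uqcrb had -0.21 (adjusted p = 0.0379 and 0.35). With the block 3 of 77 members and 11.3% of all tested genes passed.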

How the results depend on the processing

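Of 191 calls of a member in a comparison, 66 were made under every alternative and 13 changed sign under some. Neither pseudocount nor the block ended any call. Counts of calls that moved by over 1.5 times were as follows. With the replicate block, which pairs the arrays, they were 32 (KCl 3 h, c-Fos shRNA), 5 and 29 (KCl 1 and 3 h, control shRNA), 27, 31 and 28 (c-Fos against control shRNA at 0, 1 and 3 h) and 3 (interaction at 6 h), and the block moved no other count that far. Without normalization they were 7 (KCl 3 h, c-Fos shRNA) and 6 and 14 (KCl 3 and 6 h, control shRNA), and with a median shift 7, and 1, 4 and 14 (KCl 1, 3 and 6 h, control shRNA). Without the intensity trend they were 8 and 16 (KCl 3 and 6 h, c-Fos shRNA) and 1 and 9 (KCl 1 and 3 h, control shRNA). At KCl 1 h, 1 gene was called with unsuffixed probe sets (c-Fos shRNA). With control shRNA 1 was called with the 50th percentile filter and 1 with the mean of probe sets. Shares of all genes without the trend, or under these filter and probe set choices, are not given here.

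With 1 array left out, counts ran from 0 to 0, 7 to 16 and 15 to 27 (KCl 1, 3 and 6 h, c-Fos shRNA), 0 to 0, 6 to 17 and 18 to 23 (control shRNA), 10 to 15, 8 to 18, 7 to 16 and 14 to 20 (c-Fos against control shRNA at 0, 1, 3 and 6 h), 37 to 43 (average) and 0 to 0 (interactions). Shares of all genes called in these fits are not given here. With 1 array left out, the Fos difference ran from -0.88 to -0.66 at 0 h and -0.89 to -0.61 at 1 h. It ran from -1.81 to -1.67 at 3 h and -1.89 to -1.81 at 6 h.

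Signs turned only with another choice of probe set. With the mean of probe sets, Ndufa12 became 0.15 and 0.10 (KCl 3 and 6 h, c-Fos shRNA), Cox8a 0.0122 and Sdha 0.0696 (KCl 6 h, c-Fos shRNA), Atp5c1 0.0565, 0.10 and 0.0320 (c-Fos against control shRNA at 0 h, 3 h and on average) and Ndufb2 -0.0206 (at 6 h). With unsuffixed probe sets, Ndufa12 became 0.68 and 0.55 (KCl 3 and 6 h, c-Fos shRNA) and 0.15 (KCl 6 h, control shRNA), Atp5c1 0.30, 0.32 and 0.19, Atp5a1 -0.0183 (1 h) and -0.0724 (average), Cox5b -0.0500 and Uqcr10 -0.19 (average). The cause was not tested.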
